A study of Mus musculus with 21 samples.

Results

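Sfrp1, Sfrp2, Dkk3, Wnt5a, Bmp4, Grem1 and Fst encode secreted proteins that act on Wnt, BMP or activin signalling between cells. They were taken from a list of names drawn up with earlier results of these data known, and all 7 were among the 24455 gene symbols counted. Here their RNA is described in every one of 21 libraries of single mouse cells. The study delivered transcription factors of the dendritic cell (DC) lineage to mouse embryonic fibroblasts (MEFs) by lentivirus and counted polyadenylated RNA of 25991 cells with a droplet assay that reads the 3' end of each transcript. Each captured molecule carries a unique molecular identifier (UMI), and levels are given as CPM, the UMIs of a gene scaled to the total of its library.

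The controls were 2 libraries of untransduced wildtype MEFs, sorted as live DAPI- cells. The factor sets were PI8 (Pu.1 and Irf8), PIB (PI8 with Batf3), PI4 (Pu.1 and Irf4), PIP (PI4 with Prdm1), SI8 (Spib and Irf8) and SII (Spib, Irf8 and Ikzf2). Each of these 6 was given to MEFs of genotype Clec9aCre/Cre Rosa26stopflox-tdTomato/tdTomato, from which live tdTomato+ cells were sorted. SI8 and SII were also given to MEFs of genotype hCD2Cre/WT Rosa26stopflow-YFP/WT, from which live YFP+ cells were sorted. A set in a line is called an arm, and each of the 8 arms has 1 library at day 3 and 1 at day 9 after transduction. The remaining 3 libraries hold wildtype spleen cells sorted by surface proteins as conventional DCs of type 1 (cDC1) and type 2 (cDC2) and as plasmacytoid DCs (pDC). The sort keeps only transduced cells in which the Cre reporter had been switched on, so cells that took up virus without reaching that state are not represented. The controls differ from the transduced libraries in genotype, sort and transduction at once, and these cannot be told apart.

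Wnt proteins bind Frizzled receptors, and secreted inhibitors limit them by binding the ligand (the SFRP family) or the co-receptors (most of the DKK family). BMPs and activins signal through paired serine/threonine kinase receptors and SMAD proteins, and are held in check by antagonists that bind the ligand, such as gremlin and follistatin. Fibroblasts are a main source of these proteins in connective tissue, where ligands and antagonists made by the same cells shape the range of the signal.

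The shallowest library, SI8 of the hCD2 line at day 3, held 2291128 UMIs and the deepest, SII of the Clec9a line at day 3, 89394715. A list of 10 fibroblast markers summed to 19250 and 18987 CPM in the MEF libraries and to between 0.171 and 6.70 CPM in the splenic DCs. In 15 transduced libraries it lay between 471 and 3219 CPM. The PI8 library of day 9 stood apart at 14.9 CPM, with 1623 CPM of a list of 8 haematopoietic markers, and it went against its arm in sex-linked transcripts (Ddx3y 0 CPM, against 17.4 CPM in PI8 at day 3). It is called the library labelled PI8 day 9 below, and results that rest on it are given with and without it. The SI8 libraries of the hCD2 line also stood apart, with medians of 2765 and 2786 UMIs per cell, the lowest of the series, and 8.32% and 10.8% of UMIs in 3 genes taken here as signs of RNA quality (Gm42418, AY036118 and Lars2). Between libraries 83 cell barcodes recurred, at most 4 in any pair. No source says that libraries came from separate animals or cultures, so the p-values below cover only how much these libraries vary, possibly for technical reasons, and arms with different factor sets are not replicates of each other.

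Of the secreted Wnt regulators among the 7 genes, Sfrp1, Sfrp2 and Dkk3 fell against MEF. Sfrp1 (chr8:23411502-23449632, plus strand; GRCm38, GENCODE vM21, as for the genes below) encodes a Frizzled-like protein that binds Wnts, and its RNA fell in all 16 transduced libraries to below both MEF libraries. The MEF libraries held 223 and 219 CPM. At day 3 the 8 arms ran from 9.48 CPM (PI4) through a median of 13.0 to 68.9 CPM (SII, hCD2 line), and at day 9 from 1.29 CPM in the library labelled PI8 day 9 through a median of 7.07 to 60.5 CPM (PIB). Sfrp1 fell by 2.99 on the log2 scale at day 3 (SE 0.89, adjusted p = 0.030) and fell by 4.09 at day 9 (SE 0.89, adjusted p = 0.0074, edgeR quasi-likelihood test over all genes, n = 8 against 2). The day 3 call of Sfrp1 was lost without PI8 of day 3 (adjusted p = 0.0503, edgeR) and without both SI8 libraries of the hCD2 line (adjusted p = 0.054). Within the transduced libraries the high values belonged to SII at day 3, at 60.7 and 68.9 CPM in the Clec9a and hCD2 lines, and to PIB at day 9. The next highest was PIB at day 3 with 25.9 CPM, and the other 12 libraries held at most 14.8 CPM. By their counting intervals PIB at day 9 and SII of the Clec9a line at day 3 could not be ordered, nor could neighbours among the 10 libraries between 5.83 and 14.8 CPM.

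Sfrp2 encodes another Frizzled-like Wnt binder and showed the largest fall of the 7 genes against MEF at each day. Its MEF levels were 225 and 218 CPM, close to those of Sfrp1. The transduced libraries held between 0.0895 and 6.33 CPM at day 3 and between 0 and 9.07 CPM at day 9. Sfrp2 fell by 6.54 on the log2 scale at day 3 (SE 1.30, adjusted p = 0.0029, edgeR) and fell by 6.74 at day 9 (SE 1.31, adjusted p = 0.0037, edgeR). The highest transduced libraries were PI8 at day 3, with 6.33 CPM against 4.87 CPM in PIP, and PIP at day 9, with 9.07 CPM. In 6 of the 16 libraries the level was below 0.5 CPM but above 0, and in the library labelled PI8 day 9 it was 0 UMIs, which allows up to 0.484 CPM. Below 4.87 CPM the counting intervals of neighbours in the order of levels overlapped all the way down to the splenic cells.

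Dkk3 (chr7:112116017-112159057, minus strand), a member of the Dickkopf family whose action on Wnt signalling depends on the cell, was the third gene that fell at both days. It stood at 94.3 and 91.7 CPM in MEF. At day 3 the arms held between 1.64 CPM (PIP) and 10.98 CPM (SII, Clec9a line), and Dkk3 fell by 4.10 on the log2 scale (SE 0.74, adjusted p = 0.0014, edgeR). At day 9 they held between 0 CPM (the library labelled PI8 day 9) and 17.8 CPM (SII, Clec9a line), and Dkk3 fell by 3.14 on the log2 scale (SE 0.74, adjusted p = 0.012, edgeR). In 7 of 8 arms the day 9 library was the higher, for example 14.9 against 2.98 CPM in SI8 and 17.2 against 8.92 CPM in SII of the hCD2 line.

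At day 9, 3 of the 7 genes were called, all lower, beside 10.6% of all genes tested called against MEF and 5.54% called lower. At day 3 the count was also 3 of 7, all lower, beside 17.1% called and 8.38% called lower. The 2 comparisons share the MEF libraries and are not independent. The median log2 difference of the 7 genes was -2.60 at day 9 and -2.67 at day 3, against 0.19 and 0.14 over all genes tested. With either MEF library left out, so that MEF rests on a single library assumed to vary like the other groups, Sfrp2 alone was still called at day 9 (beside 1.5% and 1.52% of all genes without replicate 1 and 2) and Sfrp2 and Dkk3 at day 3 (beside 3.21% and 3.19%). The fibroblast marker list moved in the same direction: 7 of its 10 genes were called lower at day 9 and 6 at day 3, while 4 of 8 haematopoietic markers were called higher at each day. What part that plays in the levels of the 7 genes was not tested.

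**Figure D1:**
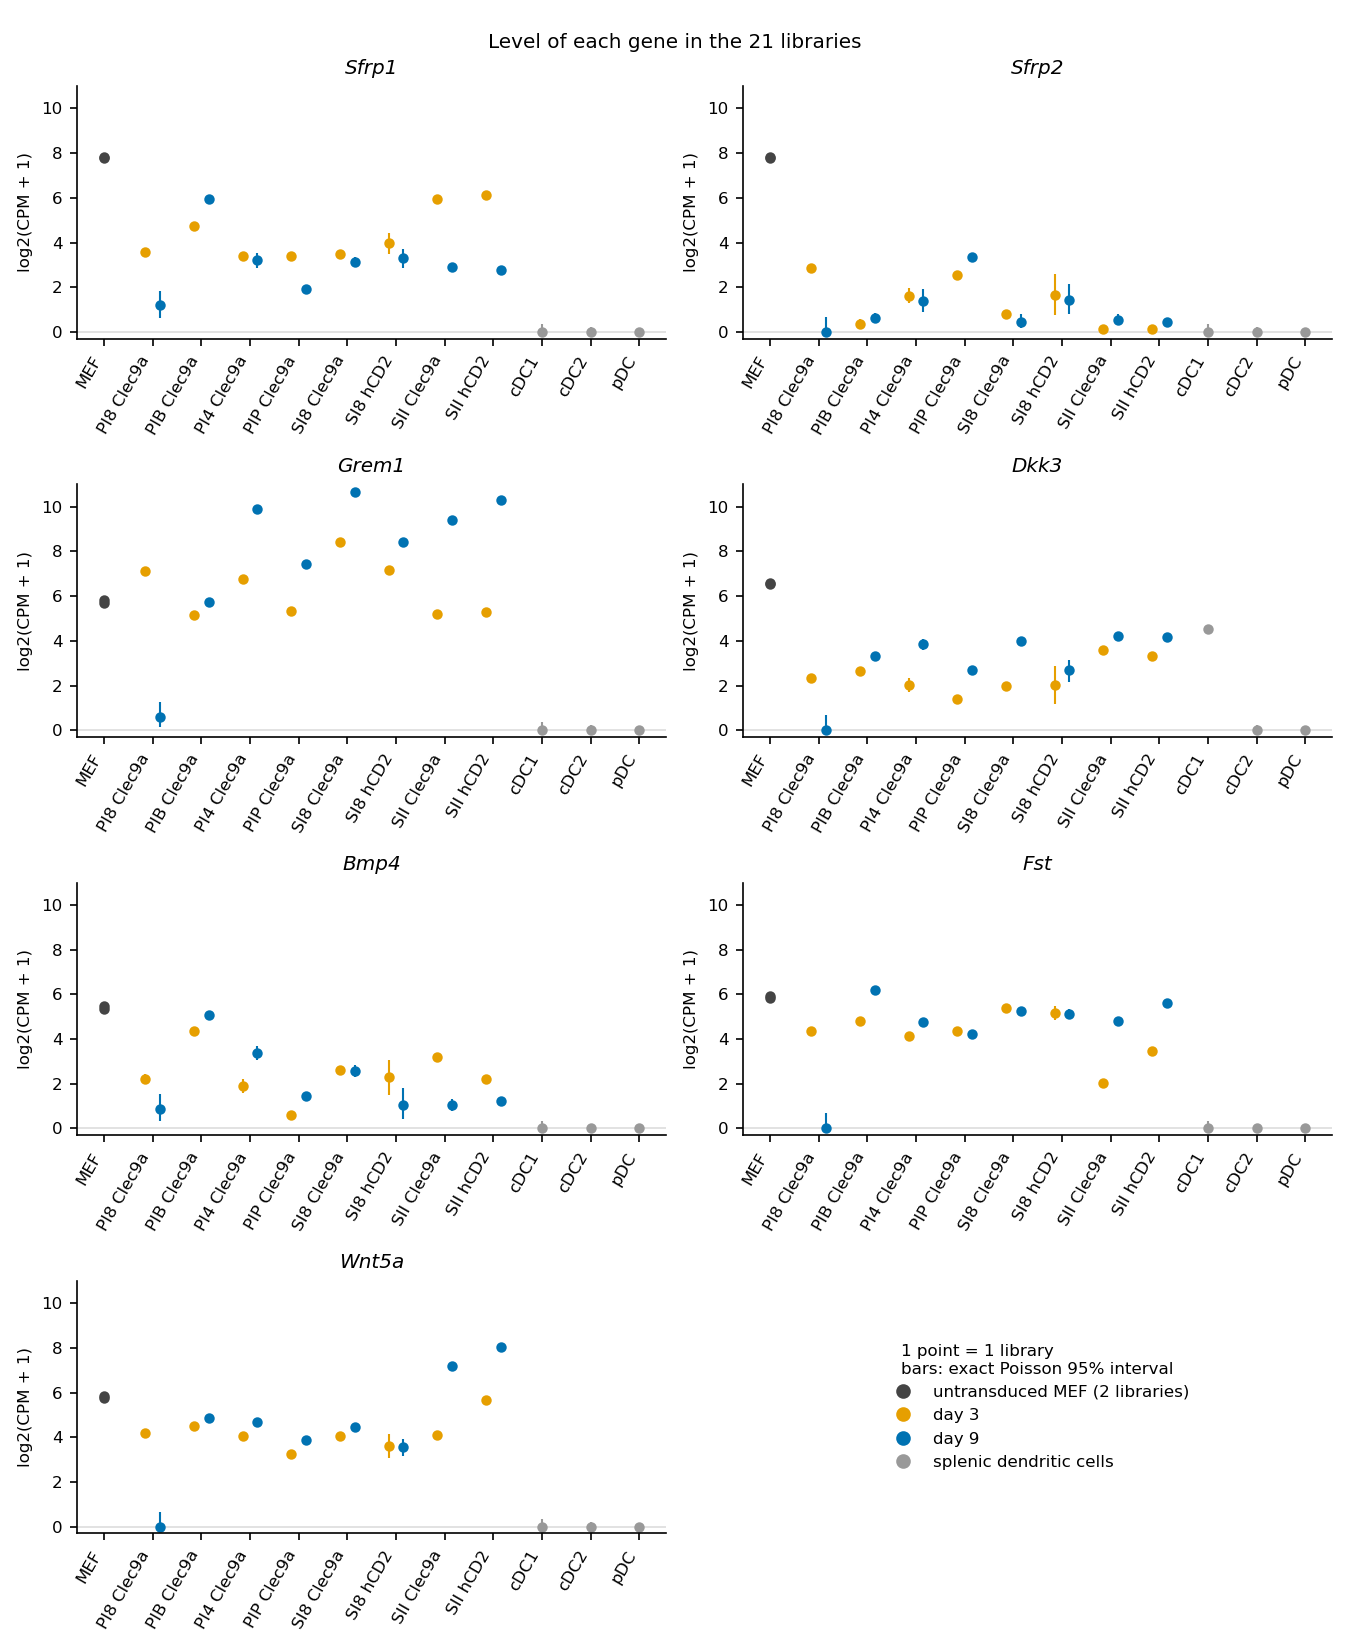
Level of each gene in every library, as log2(CPM + 1) on the vertical axis, by arm on the horizontal axis. Each point is 1 library with its exact Poisson 95% interval, which covers counting error only. Sfrp1, Sfrp2 and Dkk3 are highest in the 2 MEF libraries, Grem1 reaches 936, 1245 and 1605 CPM in 3 libraries of day 9, and the library labelled PI8 day 9 is at or near 0 for all 7 genes.

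Wnt5a (chr14:28504750-28527448, plus strand), a Wnt ligand best known for signalling without beta-catenin, took a different course. Its MEF levels were 52.8 and 56.9 CPM. All 8 arms were below that at day 3, from 8.42 CPM (PIP) through a median of 15.99 to 50.2 CPM (SII, hCD2 line), but the difference of -1.38 on the log2 scale was not called (SE 1.11, adjusted p = 0.40, edgeR). At day 9, SII stood alone above MEF with 145 CPM in the Clec9a line and 263 CPM in the hCD2 line. The other 6 arms of day 9 ran from 0 CPM in the library labelled PI8 day 9 to 27.9 CPM (PIB). Over all 8 arms the day 9 comparison with MEF was not called (means of 63.3 and 54.8 CPM, adjusted p = 0.96, edgeR).

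Bmp4 (chr14:46383520-46390669, minus strand), a ligand of the BMP receptors, was at 39.6 and 43.0 CPM in MEF and lower in all 16 transduced libraries, yet neither day was called. At day 3 the arms ran from 0.526 CPM (PIP) through a median of 3.81 to 19.4 CPM (PIB), with a log2 difference of -2.67 (SE 1.06, adjusted p = 0.090, edgeR). At day 9 they ran from 0.807 CPM through a median of 1.54 to 32.6 CPM (PIB), with a log2 difference of -2.60 (SE 1.06, adjusted p = 0.12, edgeR). Without PIB of day 9, Bmp4 was called lower at day 9 (-3.79, adjusted p = 0.012, edgeR) and at day 3 (-2.69, adjusted p = 0.041), and without PIB of day 3 it was called lower at day 3 (-3.26, adjusted p = 0.041). PIB was the arm with the most Bmp4 at each day. At day 9 the next highest was PI4 with 9.39 CPM, and both SII libraries, at 1.06 and 1.35 CPM, were near the level of the hCD2 line of SI8, at 1.07 CPM.

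Fst (chr13:114452290-114458951, minus strand) encodes follistatin, which binds activins and some BMPs. MEF held 59.5 and 55.6 CPM. The arms held between 3.04 CPM (SII, Clec9a line) and 40.2 CPM (SI8, Clec9a line) at day 3, all below MEF, and between 0 and 71.9 CPM at day 9, when PIB alone was above MEF. Neither difference was called: it was -1.24 at day 3 (SE 0.94, adjusted p = 0.37, edgeR) and -0.77 at day 9 (SE 0.96, adjusted p = 0.63, edgeR). The lowest values were those of the library labelled PI8 day 9 (0 CPM) and of SII at day 3 (3.04 and 10.2 CPM), while the other 13 transduced libraries held at least 16.8 CPM.

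Grem1 encodes gremlin, which binds and blocks BMP2, BMP4 and BMP7, and its level spread widely over the transduced libraries. MEF held 50.01 and 56.4 CPM. At day 3, SI8 held 337 CPM in the Clec9a line and 144 CPM in the hCD2 line, PI8 138 CPM and PI4 108 CPM, all above MEF. PIP (39.8 CPM), SII (35.1 and 38.3 CPM) and PIB (34.7 CPM) were below it. At day 9, SI8 held 1605 CPM in the Clec9a line and 346 CPM in the hCD2 line, SII 666 and 1245 CPM, PI4 936 CPM and PIP 171 CPM. PIB, at 52.7 CPM, lay between the MEF libraries, and the library labelled PI8 day 9 held 0.484 CPM. In all, 6 arms were above both MEF libraries at day 9, but the difference was not called by edgeR (log2 difference 3.59, SE 1.75, adjusted p = 0.19). At day 3 it was 1.24 (SE 1.47, adjusted p = 0.58, edgeR). DESeq2 did call Grem1 higher at day 9 (adjusted p = 0.030), while edgeR called it in none of the alternative fits of that day. The 4 highest libraries were apart from each other by their counting intervals, and SI8 of the hCD2 line at day 9 overlapped SI8 of the Clec9a line at day 3.

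The starts of Grem1 and Sfrp2 are shown because Sfrp2 had the largest fall of the 7 genes while Grem1, though not called by edgeR, lay above both MEF libraries in 6 of 8 arms at day 9. All arms were given an ETS-family factor (Pu.1 or Spib), whose core motif is GGAA. Each window runs from 250 bases before to 50 bases after the start of transcription in RefSeq (GRCm38.p6), on the gene's own strand, with each GGAA and its reverse complement TTCC in capitals. Of the 7 genes, 3 (Grem1, Sfrp2 and Bmp4) had a window in the table used. Grem1 lies at chr2:113746164-113758646 on the minus strand, and its window at chr2:113758599-113758898. Sfrp2 lies at chr3:83766321-83774316 on the plus strand, and its window at chr3:83766071-83766370.
Grem1: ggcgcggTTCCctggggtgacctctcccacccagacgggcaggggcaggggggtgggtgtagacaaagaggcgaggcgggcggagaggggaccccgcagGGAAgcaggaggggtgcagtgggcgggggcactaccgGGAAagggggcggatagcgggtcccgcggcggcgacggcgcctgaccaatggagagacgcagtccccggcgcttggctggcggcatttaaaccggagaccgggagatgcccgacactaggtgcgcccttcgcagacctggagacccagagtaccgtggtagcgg
Sfrp2: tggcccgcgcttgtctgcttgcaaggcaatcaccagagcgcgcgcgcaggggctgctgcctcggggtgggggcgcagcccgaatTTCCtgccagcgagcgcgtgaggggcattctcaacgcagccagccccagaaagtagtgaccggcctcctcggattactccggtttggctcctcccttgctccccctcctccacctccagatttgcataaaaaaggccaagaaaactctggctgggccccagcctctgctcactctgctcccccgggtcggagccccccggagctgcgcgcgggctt
The Grem1 window holds 3 sites, the Sfrp2 window 1 and the Bmp4 window (chr14:46390620-46390919, minus strand) 6. Among 32851 mouse promoters of the same length 95.98% hold at least 1 such site, with a median of 3. The longer motif GAGGAA, found on either strand in 28.28% of promoters and overlapping GGAA, occurs in neither the Grem1 nor the Sfrp2 window and once in that of Bmp4. These matches describe the letters and not binding, which was not measured.

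From day 3 to day 9 no member was called with the arm as a block, beside 0.0808% of all genes called (edgeR). By unadjusted p under 0.05 the count was 1, Sfrp1 (beside 16.2% of all genes), which DESeq2 also called (beside 7.48%). The direction was nevertheless shared by most arms for 4 genes. Grem1 was higher at day 9 in 7 of 8 arms (log2 difference 2.00, SE 1.09, adjusted p = 0.39, edgeR) and Dkk3 in 7 of 8 (0.84, SE 0.60, adjusted p = 0.52, edgeR). Wnt5a was higher in 6 of 8 arms (0.52, SE 0.76, adjusted p = 0.78, edgeR). Sfrp1 was lower in 7 of 8 arms, all but PIB, where it went from 25.9 to 60.5 CPM (log2 difference -1.60, SE 0.59, adjusted p = 0.23, edgeR). Sfrp2 and Fst were higher in 4 arms and lower in 4, and Bmp4 was higher in 3 and lower in 5.

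The PI8 pair decided these calls: with PI8 day 3 left out, 2 of the 7 genes and 1232 genes of the whole table were called. Either omission takes the pair out of the difference, so the calls cannot be assigned to the library labelled PI8 day 9 alone. Without it, its arm is left with 1 library and adds nothing to the difference, and Grem1 was called higher (log2 difference 2.52, adjusted p = 0.025, edgeR), as was Dkk3 (1.23, adjusted p = 0.019, edgeR). The 7.55% of all genes then called compares with 2 of the 7 genes. Sfrp1 (-1.40, adjusted p = 0.17) and Wnt5a (1.00, adjusted p = 0.13) remained below the threshold. In PI4, Grem1 went from 108 to 936 CPM, in SI8 of the Clec9a line from 337 to 1605 CPM, and in SII of the hCD2 line from 38.3 to 1245 CPM. In the same order, the RNA quality genes went from 1.17% to 3.47%, from 0.286% to 3.66% and from 0.355% to 0.146% of UMIs. Median UMIs per cell went from 4022.5 to 7610.5, from 63868 to 10816.5 and from 53062 to 54413.5. The part of these in the Grem1 levels was not tested.

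**Figure D2:**
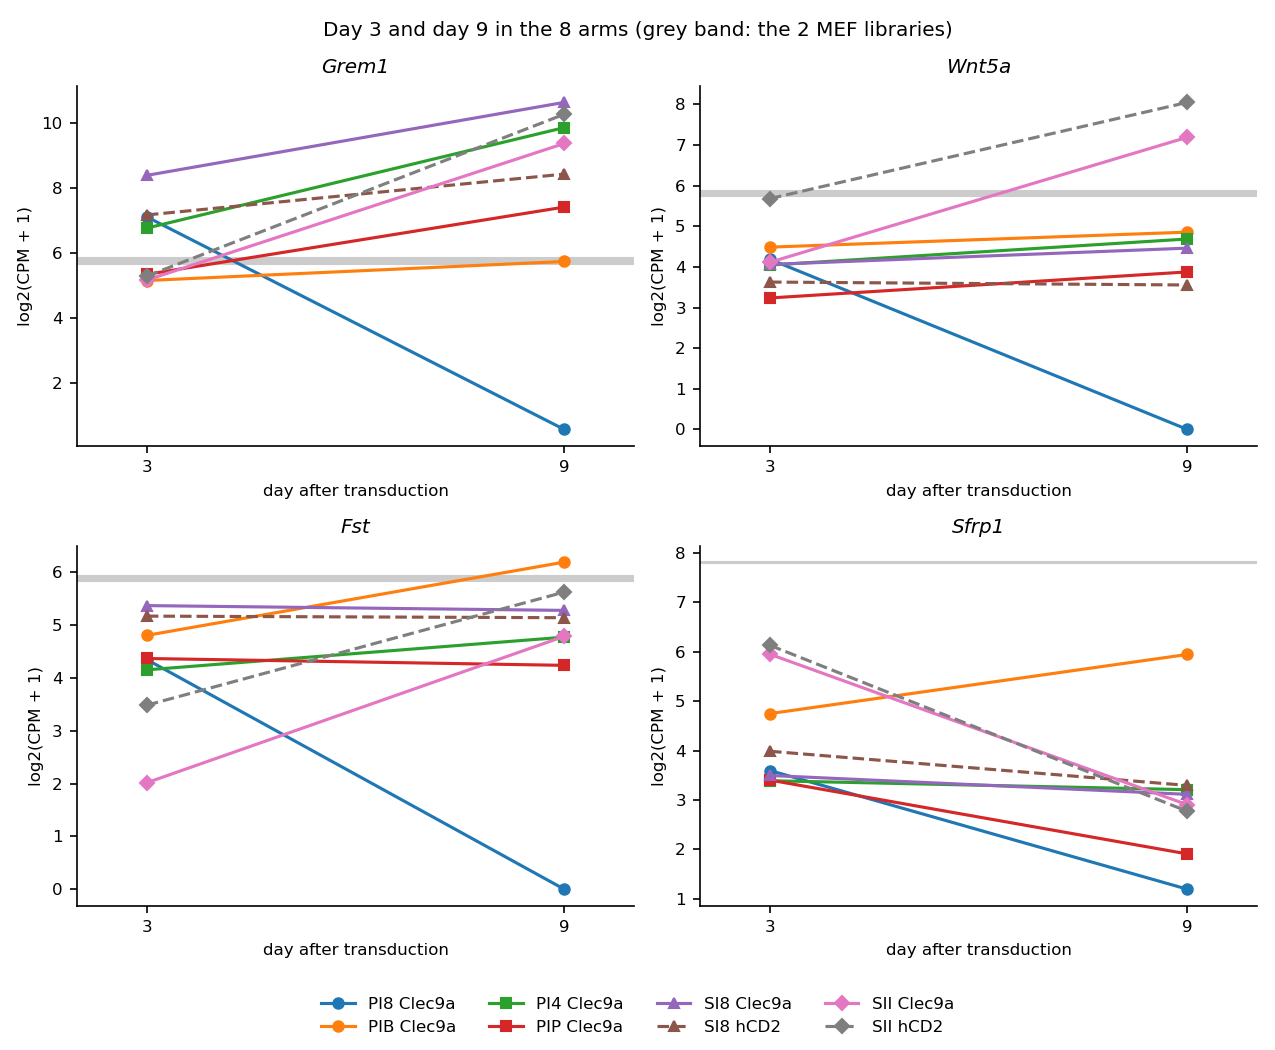
Levels of Grem1, Wnt5a, Fst and Sfrp1 at day 3 and day 9, as log2(CPM + 1), with 1 line per arm (dashed: hCD2 line) and the 2 MEF libraries as a grey band. Grem1 is higher at day 9 in every arm but PI8, and Wnt5a passes the band at day 9 in the 2 SII arms alone.

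SII and SI8 differ by Ikzf2, the gene of the zinc-finger protein Helios, and were compared in 4 matched pairs of line and day. Wnt5a was higher with Ikzf2 in all 4 pairs. In the Clec9a line it was 16.3 against 15.7 CPM at day 3 and 145 against 21.02 CPM at day 9, and in the hCD2 line 50.2 against 11.3 CPM and 263 against 10.7 CPM. The log2 difference was 2.07 (SE 0.63, adjusted p = 0.034, edgeR). Dkk3 was likewise higher in all 4 pairs, by 0.99 on the log2 scale (SE 0.30, adjusted p = 0.034, edgeR), with means of 13.7 and 6.58 CPM. Sfrp2 was lower in 3 of 4 pairs, by 2.62 (SE 0.74, adjusted p = 0.026, edgeR), though at means of only 0.248 and 1.25 CPM.

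Thus 3 of 7 genes were called between SII and SI8, beside 37.6% of all genes tested, a share close to that of the 7. Fst (-1.64, SE 0.61, adjusted p = 0.066), Grem1 (-1.51, SE 0.76, adjusted p = 0.15), Sfrp1 (0.73, SE 0.57, adjusted p = 0.33) and Bmp4 (-0.65, SE 0.46, adjusted p = 0.29) were not called by edgeR. The groups differ in more than the added factor. The macrophage marker list held 1492 and 8624 CPM in SI8 of the Clec9a line at day 3 and day 9, and 1211 and 9114 CPM in the hCD2 line, against 105 to 203 CPM over the 4 SII libraries. Of the other lists, 4 of 10 fibroblast and 4 of 5 mural and smooth muscle markers were lower in SII, and of 8 haematopoietic markers 5 were higher and 2 lower. The genes taken as signs of RNA quality were lower in 2 of 3 cases, and took 0.286% and 3.66% of UMIs in SI8 of the Clec9a line at day 3 and day 9 against 0.146% to 0.593% in SII. The part of these in the result was not tested. Cells of the 2 SI8 libraries of the hCD2 line were also the shallowest of the series. With both of these left out, which leaves SI8 with the Clec9a line alone, 0 of the 7 were called, beside 10.3% of all genes. The directions held: Wnt5a was at 1.05 (adjusted p = 0.35), Dkk3 at 0.78 (adjusted p = 0.24) and Sfrp2 at -1.95 (adjusted p = 0.24, edgeR). Single libraries also decided these calls. Sfrp2 was no longer called without the day 3 library of either SII arm or of either SI8 arm, or without SI8 of the hCD2 line at day 9 (adjusted p = 0.057 to 0.11, edgeR). Dkk3 kept its call only without SI8 or SII of the Clec9a line at day 9 (otherwise adjusted p = 0.058 to 0.12, edgeR), and Wnt5a only without SI8 or SII of the Clec9a line at day 3 or SII of the hCD2 line at day 9 (otherwise 0.064 to 0.11). Grem1 and Fst were called lower without SI8 of the hCD2 line at day 9 (-2.31 and -2.26, adjusted p = 0.026 and 0.035, edgeR) and without SII of that line and day (-2.07 and -1.93, adjusted p = 0.011 and 0.026).

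The difference between SII and SI8 itself differed by day for 4 of the 7 genes, beside 3.71% of all genes tested. Sfrp1 was higher with Ikzf2 at day 3, by 2.56 and 2.21 on the log2 scale in the Clec9a and hCD2 lines, and slightly lower at day 9, by -0.24 and -0.60. The change in the difference was -2.88 (SE 0.24, adjusted p = 0.012, edgeR). Grem1 was lower with Ikzf2 at day 3, by -3.26 and -1.91, and at day 9 stood at -1.27 and 1.85, a change of 2.81 (SE 0.38, adjusted p = 0.023, edgeR). Fst in SI8 stood at 40.2 and 34.9 CPM on day 3 and at 37.7 and 34.2 CPM on day 9, and in SII at 3.04 and 10.2 CPM and then at 26.6 and 48.2 CPM. Its log2 difference went from -3.73 and -1.78 to -0.51 and 0.50, a change of 2.70 (SE 0.32, adjusted p = 0.017, edgeR). Wnt5a went from 0.06 and 2.15 to 2.79 and 4.62, a change of 2.49 (SE 0.30, adjusted p = 0.018, edgeR).

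For these 4 genes the 2 lines agreed in the direction of the change from day 3 to day 9. At day 3 SII cells had more Sfrp1 and less Grem1 and Fst than SI8 cells, and at day 9 Sfrp1 was at 6.48 and 5.83 CPM and Grem1 at 666 and 1245 CPM. Sfrp2 (2.83, SE 0.89, adjusted p = 0.13), Dkk3 (-1.18, SE 0.39, adjusted p = 0.14) and Bmp4 (-1.63, SE 0.71, adjusted p = 0.23) were not called by edgeR. The fit left 2 residual degrees of freedom. With both SI8 libraries of the hCD2 line left out, Sfrp1 alone was called (-2.85, adjusted p = 0.048, edgeR), beside 0.436% of all genes, while Grem1 (2.50, adjusted p = 0.066), Fst (2.88, adjusted p = 0.061) and Wnt5a (2.46, adjusted p = 0.063) kept their direction. With any 1 of the 4 SI8 libraries left out, none of the 4 genes passed: adjusted p then ran from 0.055 to 0.11 for Sfrp1 and for Grem1, from 0.085 to 0.11 for Fst and from 0.087 to 0.11 for Wnt5a (edgeR), and 30 genes of the whole table were called without SI8 of the Clec9a line at day 9 and 0 without any of the other 3. With any 1 of the 4 SII libraries left out, all 4 genes were called, when 1161 to 1367 genes of the whole table were. Leaving out 1 library of a set lets the fit match the other 3 of that set exactly. The residual spread then comes from the other set alone, with 1 degree of freedom. These fits therefore cannot show which library a call rests on.

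Whether the difference between SII and SI8 depended on the reporter line was tested in the same fit. None of the 7 genes was called, beside 0% of all genes (edgeR). By unadjusted p under 0.05 the count was 3, namely Grem1, Fst and Wnt5a, whose adjusted p were 0.18, 0.27 and 0.18 (beside 11.2% of all genes), and DESeq2 called 2 (beside 1.38%). With any 1 SII library left out, Grem1 and Wnt5a were called (highest adjusted p = 0.0049 and 0.0032, edgeR), when 297 to 531 genes of the whole table were. With any 1 SI8 library left out, 0 members and 0 genes of the whole table were called. Either way the residual spread comes from the other set alone, with 1 degree of freedom. These fits therefore do not decide whether the difference depends on the line. The lines themselves, over both sets and days, differed in none of the 7 genes by edgeR, beside 0.0195% of all genes, with 0 at unadjusted p under 0.05 (beside 5.02%) and 0 by DESeq2 (beside 0.428%).

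**Figure D3:**
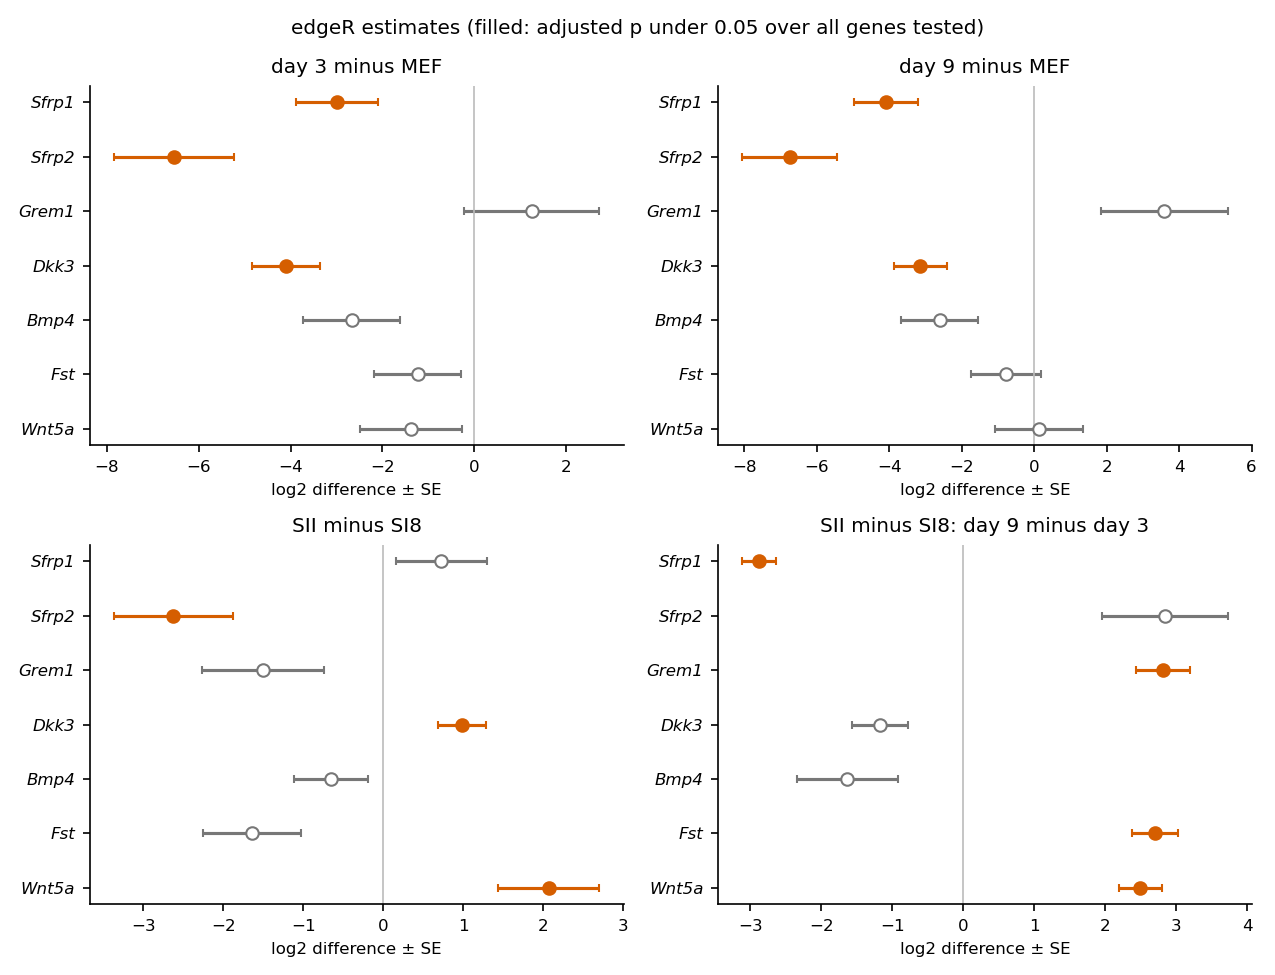
Log2 differences with their standard errors for the 7 genes in 4 comparisons (edgeR), with filled points for adjusted p under 0.05 over all genes tested. Against MEF, Sfrp1, Sfrp2 and Dkk3 are filled at each day. Between SII and SI8 the change from day 3 to day 9 is filled for Sfrp1 on the lower side and for Grem1, Fst and Wnt5a on the higher side.

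Adding Batf3 to PI8 gave no call among the 7 genes, beside 0% of all genes (edgeR). At unadjusted p under 0.05 the count was 2, Sfrp1 and Bmp4 (beside 18.6% of all genes), and DESeq2 called the same 2 (beside 7.96%). Sfrp1 was at 25.9 and 60.5 CPM in PIB at day 3 and day 9 against 11.1 and 1.29 CPM in PI8 (log2 difference 3.66, SE 1.17, adjusted p = 0.21, edgeR). Bmp4 was at 19.4 and 32.6 CPM against 3.70 and 0.807 CPM (3.65, SE 1.20, adjusted p = 0.21, edgeR). The PI8 side rests on the library labelled PI8 day 9 together with 1 other. Without it 0 of the 7 were called, beside 0.237% of all genes, and Sfrp1 stood at 2.94 (adjusted p = 0.56, edgeR). With PI8 day 3 left out in its place, 6 of the 7 were called, beside 42.4% of all genes.

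Adding Prdm1 to PI4 called 0 of the 7, beside 0.137% of all genes (edgeR), with 0 at unadjusted p under 0.05 (beside 10.5%) and 0 by DESeq2 (beside 3.9%). Grem1, Dkk3, Bmp4 and Wnt5a were nonetheless lower in PIP than in PI4 at both days, Grem1 at 39.8 against 108 CPM and then 171 against 936 CPM. Sfrp2 was higher at both days, at 4.87 against 2.09 CPM and then 9.07 against 1.65 CPM. The PI4 value of day 3 rests on 1 of 712 cells, which held 97.1% of the 35 Sfrp2 UMIs. PI4 cells were also shallower, with medians of 4022.5 and 7610.5 UMIs at day 3 and day 9, against 57205 and 75761.5 in PIP. The genes taken as signs of RNA quality took 1.17% and 3.47% of UMIs in PI4, against 0.316% and 0.680% in PIP. The part of these in the differences between PIP and PI4 was not tested. Between the arms with Irf4 and those with Irf8 beside Pu.1, 0 of the 7 were called, beside 0.00697% of all genes (edgeR), again with 0 at unadjusted p under 0.05 (beside 7.4%) and 0 by DESeq2 (beside 2.34%).

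Splenic DCs gave the background for these genes. Sfrp1, Sfrp2, Grem1, Bmp4, Fst and Wnt5a had 0 UMIs in all 3 libraries, which allows up to 0.227 CPM in cDC1, 0.128 CPM in cDC2 and 0.0565 CPM in pDC. Dkk3 was the exception. It had 22.3 CPM in cDC1, from 294 UMIs, above the highest transduced library, and 0 in cDC2 and pDC. Among transduced libraries, the one labelled PI8 day 9 had 0 UMIs of 4 of the 7 genes (Sfrp2, Dkk3, Fst and Wnt5a).

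The share of cells with a UMI was taken after every cell was thinned to 2500 UMIs. At this depth the share rises with the RNA per cell as well as with the number of cells that hold any, and these cannot be told apart. For Grem1 the share was 9.44% and 8.22% in MEF and rose from day 3 to day 9 in 6 of 8 arms. It went from 33.2% to 85.9% in SI8 of the Clec9a line, from 29.8% to 53.5% in SI8 of the hCD2 line, from 15.9% to 64.4% in PI4 and from 4.83% to 16.9% in PIP. In SII it went from 3.51% to 46.2% and from 5.16% to 52.5%. In PIB it was 6.36% and then 5.19%, and in PI8 15.6% and then 0.146%. In the splenic DCs it was 0%, which allows a share of cells with a UMI, not of cells expressing the gene, of up to 0.369% in cDC1, 0.159% in cDC2 and 0.0720% in pDC.

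Wnt5a was found in 10.6% and 11.4% of MEF cells, in 28.1% and 34.5% of SII cells at day 9, and in at most 9.81% of cells in any other transduced library. Sfrp1 was found in 30.5% and 28.2% of MEF cells, in 13.0% and 14.3% of SII cells at day 3 and in 1.24% and 1.34% at day 9. In PIB its share was 5.52% and then 8.60%. Sfrp2 went from 30.0% and 28.2% of MEF cells to at most 1.43% of transduced cells (PIP, day 9). Dkk3 was found in 21.2% and 18.9% of MEF cells and at most 4.98% of transduced cells, but in 6.27% of cDC1. Fst was found in 12.7% of cells in each MEF library and in 0% to 10.0% of transduced cells, most in PI4 at day 9. Bmp4 was found in 7.78% and 8.97% of MEF cells and in 6.22% and 7.14% of PIB cells, against at most 2.40% in other arms.

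**Figure D4:**
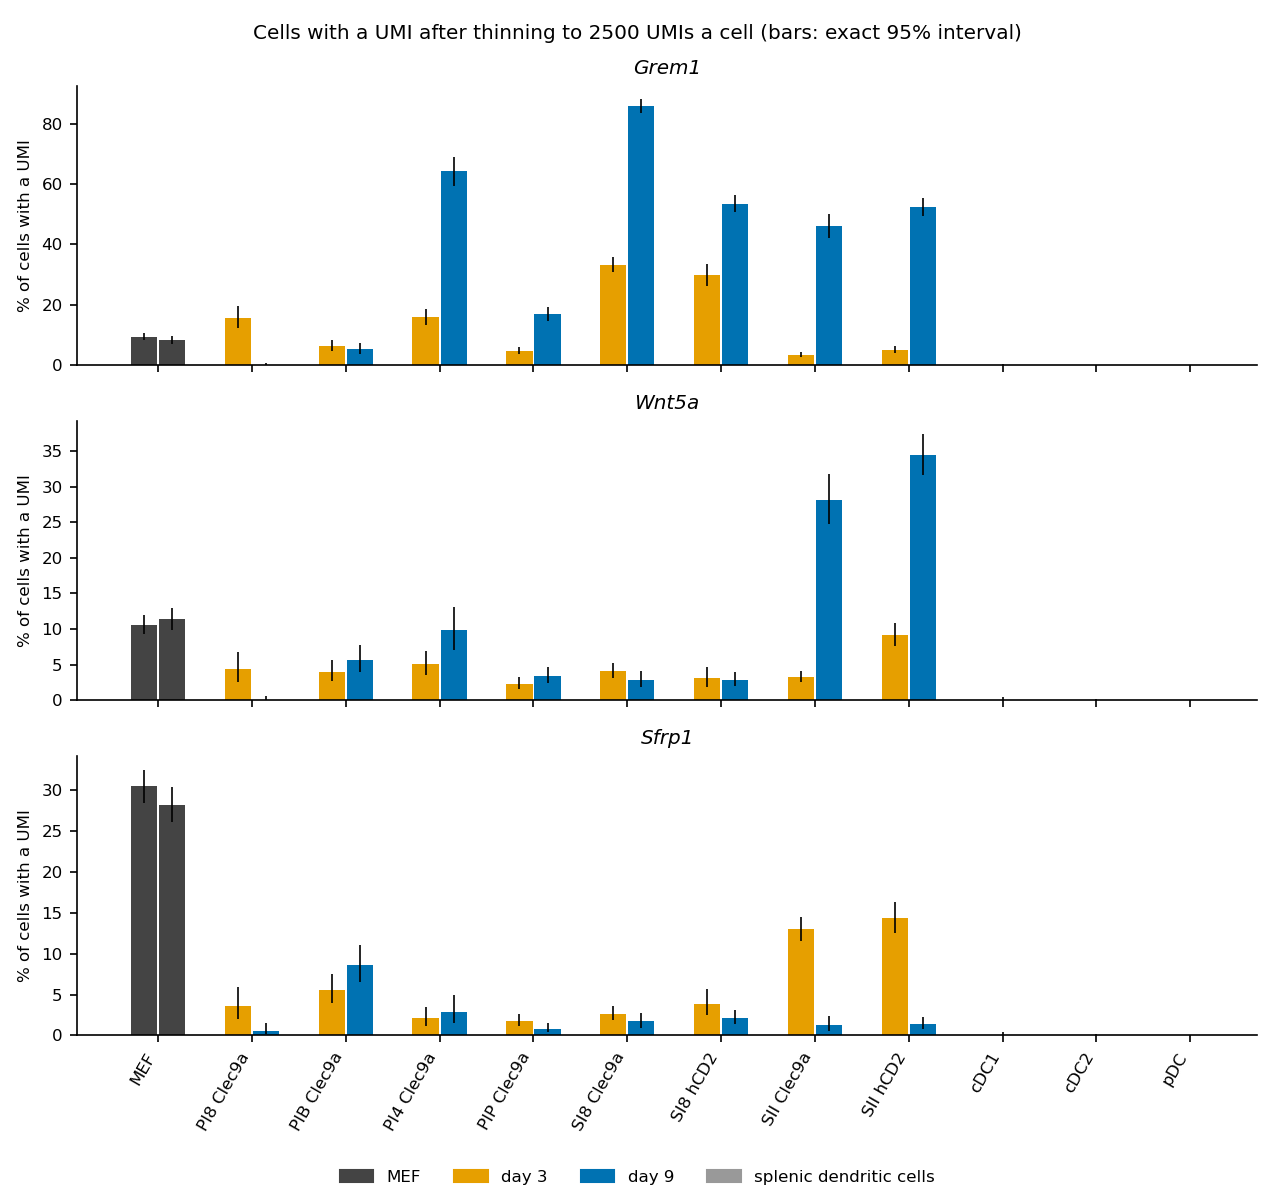
Share of cells with a UMI of Grem1, Wnt5a or Sfrp1 after thinning each cell to 2500 UMIs, with exact 95% binomial intervals that cover counting error only. Grem1 is found in 85.9% of cells of SI8 in the Clec9a line at day 9, and Wnt5a in 28.1% and 34.5% of SII cells at day 9.

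At least 1 of the 7 genes was seen in 73.1% and 70.8% of thinned MEF cells. In transduced libraries that share ran from 1.02% in the library labelled PI8 day 9 to 88.4% in SI8 of the Clec9a line at day 9, where nearly all of it was Grem1. In MEF, Sfrp2 was seen more often in cells with Sfrp1 than in cells without it, at 39.6% against 25.8% in replicate 1 and 40.8% against 23.2% in replicate 2. It was also seen more often in cells with Bmp4, at 44.6% against 28.8% and 45.2% against 26.5%. In SII at day 9, Wnt5a was seen in 32.7% of cells with Grem1 and 24.3% of cells without it in the Clec9a line, and in 42.5% and 25.6% in the hCD2 line. Cells of a library are not replicates, and these shares are descriptions.

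In PIP, in PI8 and PI4 at day 3 and in PIB at day 9, most Sfrp2 UMIs sat in few cells. In PIP at day 9, 24 of 1186 cells had 5 or more Sfrp2 UMIs and held 87.8% of them, at 369 CPM within those cells. In PI8 at day 3, 9 of 411 cells held 93.4%, and in PIP at day 3, 14 of 1326 cells held 60.8%. In MEF, 569 of 2045 and 595 of 1728 cells had 5 or more, at 606 and 519 CPM within them. Outside both PIP libraries and PI8 at day 3, 9 of 13 transduced libraries had no such cell and 4 had 1 to 3. Among these 4, 1 cell held 97.1% of 35 UMIs in PI4 at day 3 and 90.5% of 21 UMIs in PIB at day 9. In PIB at day 3, which had no such cell, the cells with a UMI held a mean of 1.08. The minimum of 5 was set after the values were seen. In PIP at day 9 the cells with 5 or more had 762 CPM of the fibroblast list against 555 CPM in the rest, and 452 CPM of the haematopoietic list against 1051 CPM. In PI8 at day 3 they had 772 CPM of the fibroblast list against 826 CPM in the rest, and 199 CPM of the haematopoietic list against 544 CPM.

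Cells of a transduced library were also split by whether they held at least 2 UMIs of the haematopoietic list. Grem1 was lower in the cells with that signal in 11 of 15 libraries with enough UMIs (median log2 ratio -0.37) and Wnt5a in 11 of 14 (median -0.46). Fst was lower in 9 of 14 and Dkk3 in 5 of 6, while Sfrp1 was lower in 3 of 8. Grem1 differed most in PIP at day 3, at 4.87 against 52.5 CPM, and in PIB at day 9, at 0 against 48.8 CPM. These values rest on few thinned UMIs: 5 in 411 cells against 120 in 915 in PIP, and 0 in 75 cells against 66 in 541 in PIB. The fibroblast list was lower in the cells with the haematopoietic signal in 10 of 16 libraries (median log2 ratio -0.0045).

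The other genes of the Wnt pathway were counted from fixed lists. At day 9 these counts stand beside 5.54% of all genes tested called lower and 10.6% called in either direction. Of 9 other Wnt ligands tested, 2 fell against MEF at day 9, namely Wnt16 (from a mean of 30.3 to 0.504 CPM) and Wnt5b (from 5.42 to 0.343 CPM), and 0 rose. Of 19 receptors and co-receptors 5 fell and 0 rose. Fzd2, a Frizzled receptor, went from a mean of 96.7 to 10.7 CPM (log2 difference -3.11, adjusted p = 0.0052, edgeR). Ryk, a receptor that binds Wnt5a, stood at 187 and 190.5 CPM in MEF and at a median of 73.4 CPM at day 9 without a call. Of 8 other secreted inhibitors and agonists 1 fell, the agonist Rspo2 (from a mean of 203.8 to 8.22 CPM), and Rspo3 fell as well at day 3 (from 342.8 to 20.4 CPM). Of 11 Wnt target genes, 3 fell (Tcf7, Nkd1 and Lgr5) and 0 rose.

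On the BMP side, beside the same 5.54% and 10.6% of all genes, 2 of 15 ligands fell at day 9 and 1 rose. Tgfb2 went from a mean of 137 to 6.22 CPM and Gdf5 from 1.05 to 0.0524 CPM, whereas Tgfb1 rose from 28.3 to 149.7 CPM (log2 difference 2.40, adjusted p = 0.011, edgeR). Of 10 other antagonists 3 fell, namely Fstl1 (from a mean of 1278 to 190.3 CPM), Nbl1 (from 137 to 22.5 CPM) and Chrd (from 6.75 to 1.13 CPM). Of 18 receptors and SMADs 4 fell and 1 rose. Among 10 BMP target genes, Id2 rose from a mean of 9.77 to 270.4 CPM (4.85, adjusted p = 0.023, edgeR), Msx1 fell from 16.8 to 0.984 CPM, and the remaining 8 were not called. Id2 is also a known regulator of DC development, and its level in splenic cDC1 was 818 CPM. The list medians of log2 differences ran from -0.998 for Wnt receptors to 2.12 for Wnt ligands, against 0.19 over all genes tested. Of the 9 Wnt ligands, however, 0 were called higher and 2 lower. Wnt4 held 0.807 and 0.458 CPM and Wnt11 0.353 and 0.417 CPM in the MEF libraries. No rise of Wnt ligands is read from that median.

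At day 3 the counts against MEF were similar in direction, beside 8.38% of all genes called lower and 17.1% called in either direction. There were 2 lower and 0 higher of 9 Wnt ligands, 7 and 0 of 19 Wnt receptors, 2 and 0 of 8 other Wnt inhibitors and agonists, and 3 and 0 of 11 Wnt targets. For the BMP lists there were 5 lower and 1 higher of 15 ligands, 3 and 0 of 10 antagonists, 7 and 1 of 18 receptors and SMADs, and 1 and 1 of 10 targets. Between day 9 and day 3 edgeR called 0 genes in any of these 8 lists and 13 genes of the whole table. The lists held 12 of 96 genes at unadjusted p under 0.05, beside 16.2% of all genes.

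Between SII and SI8 the Wnt receptors gave 5 higher and 2 lower of 19. The receptors and SMADs of the BMP, activin and TGF-beta families gave 8 higher and 3 lower of 18, Tgfbr2 among them at means of 169 against 48.5 CPM (log2 difference 1.48, adjusted p = 0.00031, edgeR) and Bmpr2 at 101.6 against 48.5 CPM (0.79, adjusted p = 0.0079, edgeR). Of 8 Wnt ligands, Wnt10b and Wnt2 were higher, Wnt9a and Wnt2b lower. Of 7 other inhibitors and agonists 3 were lower with Ikzf2: Dkk2 (1.78 against 35.8 CPM), Rspo3 (21.1 against 65.0 CPM) and Frzb (0.255 against 3.098 CPM). Among the other BMP antagonists, Bmper was lower, and Nog, which encodes noggin, was higher (1.44 against 0.312 CPM). Of 14 ligands Gdf15 (1.81 against 47.4 CPM) and Inhba (160.5 against 401 CPM), which encodes an activin subunit bound by follistatin, were lower and Tgfb2 higher. Among targets, Rnf43, Smad6 and Smad7 were higher, and Ccnd1, Myc, Nkd2 and Msx2 lower. As 37.6% of all genes were called, nothing particular to a list is read from these counts.

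The change of that difference by day was called for 3.71% of all genes. In the lists it was called for Wnt4 (log2 3.60), Rspo3 (3.22), Nkd2 (3.48), Myc (1.78), Gdf6 (4.42), Gdf15 (2.93), Inhbb (4.18), Tgfb3 (1.66) and Htra1 (1.76) on the higher side and for Smad9 (-2.02) on the lower side. Wnt4 reached 65.5 CPM in SII of the hCD2 line at day 9 and 10.1 CPM in the Clec9a line, against at most 3.74 CPM in the other transduced libraries. In the comparisons of PIP with PI4, PIB with PI8, Irf4 with Irf8 arms, the 2 lines, and the change by line, edgeR called 0 genes of all 8 lists. At unadjusted p under 0.05 these counted 12 of 96, 12 of 96, 6 of 84, 7 of 94 and 14 of 94 genes. The shares of all genes beside them were 10.5%, 18.6%, 7.4%, 5.02% and 11.2%.

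Over the 16 transduced libraries, the genes whose log2(CPM + 1) followed Grem1 most closely, among 7642 genes with a mean of at least 10 CPM, were Esd (Pearson r = 0.97), Lrrc32 (0.92) and Enah (0.92). Those for Sfrp1 were Sept11 (0.91), Arpc2 (0.89) and Rab43 (0.87), and those for Sfrp2 were Mmp25 (0.90), Ssr4 (0.89) and Slamf9 (0.88). For Dkk3 they were Rarg, Pappa and Gm39469 (0.95, 0.95 and 0.94), and for Wnt5a Cdr2, Rnf11 and Uso1 (0.93, 0.92 and 0.92). For Bmp4 they were Ebf1, Xcr1 and Nek6 (0.82, 0.81 and 0.80), and for Fst Crip2, Ddit4l and Pcolce (0.94 each). These libraries share arms and differ in depth, and no test was made.

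Leaving out the library labelled PI8 day 9 kept 2 of the 3 nearest genes for Grem1 and for Sfrp1, 1 for Sfrp2 and 0 for the other 4. Among the 7 genes themselves the closest pair was Dkk3 with Wnt5a (r = 0.85 over 16 libraries, 0.74 without the library labelled PI8 day 9). Grem1 with Fst went from 0.75 to 0.48 and Grem1 with Dkk3 from 0.72 to 0.51 when it was left out, while Sfrp1 with Bmp4 went from 0.67 to 0.63.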

How the data were processed

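Each deposited value is a UMI count of 1 gene in 1 cell, a whole number, in a single table from the authors. Per the submitters' processing notes they used Cell Ranger 6.0.1, Seurat (version not given in the sources used here) and mm10; how cells were filtered is likewise not given. All 25991 deposited cells were kept, with 2501 to 99996 UMIs each; Scrublet (scanpy 1.11.5) called 178 doublets (0.685%), left out as an alternative only. Counts were summed per library and tested with edgeR 4.0.16 (TMM, filterByExpr, quasi-likelihood F test, two-sided, Benjamini-Hochberg over all genes tested, called at adjusted p under 0.05). All 7 genes passed the filter in each comparison. MEF and the 2 days were fitted as 3 groups (15 residual degrees of freedom). That fit ignores the pairing of the days within an arm, so its degrees of freedom may overstate the independent libraries. Day 9 against day 3, PIB against PI8 and PIP against PI4 came from a fit with arm and day (7), Irf4 against Irf8 arms from one with day (5), SII against SI8 and the line from one with line and day (4), and the changes by day and line from their interactions (2). The days are paired by the arm in the labels; their deviations correlated at 0.63 to 0.81 in 7 arms and at -0.13 in PI8. DESeq2 1.42.0 was an alternative. The MEF libraries shared 0 barcodes and differed by more than sampling noise (chi-square 2.35 per degree of freedom). Intervals cover counting error only, and a count of 0 is given the limit of 3 counts. Levels of 3' counts are compared within a gene only. Sfrp2, Bmp4, Fst and Wnt5a overlap genes on the other strand. Named were all 7 genes, the 3 genes of each pathway list highest in any library, called genes of a list where at most 4 were called, and the 3 genes most like each of the 7. An item of the pathway lists that this rule names is not reported here. The 7 genes and the lists were chosen with earlier results of these data known. Scripts were tested on simulated counts.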

Additional observations from a re-analysis of the deposited data

Results flagged for a closer look

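Far values were looked for within the 8 libraries of each day for each gene, 14 groups in all, of which chance alone would flag about 1 in 20. The level of Sfrp1 in PIB at day 9 (60.5 CPM) lay far above the other 7 arms of that day, which ended at 8.81 CPM. Sfrp2 in PIP at day 9 (9.07 CPM) lay far above the rest, which ended at 1.72 CPM. Dkk3 (0 CPM) and Fst (0 CPM) in the library labelled PI8 day 9 lay far below the other 7 arms, whose lowest values were 5.37 and 17.8 CPM.

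The difference between SII and SI8 changed between day 3 and day 9, by a test of the change itself (edgeR interaction term), for 4 genes. The change was -2.88 on the log2 scale for Sfrp1, 2.81 for Grem1, 2.70 for Fst and 2.49 for Wnt5a, and in each case both reporter lines moved the same way. With any 1 of the 4 SI8 libraries left out, none of these genes was called (adjusted p = 0.055 to 0.11 for Sfrp1 and Grem1, 0.085 to 0.11 for Fst and 0.087 to 0.11 for Wnt5a, edgeR). The residual spread of those fits comes from SII alone, so they do not single out a library. With both SI8 libraries of the hCD2 line left out, Sfrp1 passed at adjusted p = 0.048 (edgeR) and the other 3 did not.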

How the results depend on the processing

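Of 688 alternative values of the members named in the report, 609 kept their direction and side of the threshold, 54 were no longer called, 25 were newly called and 0 reversed. Calls against MEF rest on 2 control libraries and calls between SII and SI8 on single libraries of both sets. The change of that difference by day gave 0 called members with any 1 of the 4 SI8 libraries left out. The residual spread of those fits comes from SII alone, so they do not show that a call rests on a single SI8 library. Whether members were called between day 9 and day 3 rests on the PI8 pair, as 2 members were called with either of its libraries left out. Causes were not tested. A count of 0 UMIs allows up to 0.484 CPM in the library labelled PI8 day 9.

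For day 9 against MEF, 1746 genes and 3 members were called. DESeq2 called 3289 genes and 2 members, Dkk3 and Grem1, and gave no adjusted p for Sfrp1, Sfrp2 and Bmp4. Thinning libraries to the shallowest gave 1132 genes. With MEF and day 9 alone 1058 genes and 2 members were called, Dkk3 no longer among them. For day 3 against MEF, 2825 genes and 3 members were called; DESeq2 called 4371 genes and 1 member (3 members had no adjusted p), thinning left 1770 genes, and with MEF and day 3 alone 3772 genes and 5 members were called, Bmp4 and Wnt5a in addition.

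Day 9 against day 3 gave 13 genes and 0 members, DESeq2 1203 genes and 1 member (Sfrp1), cells of at least 10000 UMIs 3 genes, thinning 3 genes, and leaving out both SI8 hCD2 libraries (added after seeing the data) 3 genes. Without the block of arms (no replicate block, the pairing of days ignored) it gave 0 genes. With the matched pairs of SII and SI8 as a replicate block, 4739 genes and 3 members were called.

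PIP against PI4 gave 22 genes, DESeq2 628, deep cells 14, thinning 5, and 12 without the SI8 hCD2 libraries. PIB against PI8 gave 0 genes, DESeq2 1281 genes and 2 members. Irf4 against Irf8 arms gave 1 gene, DESeq2 335 and thinning 0. The lines differed in 3 genes, by DESeq2 in 66 and without the filter in 10.

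SII against SI8 gave 5798 genes and 3 members. DESeq2 called 6617 genes and 5 members (Grem1 and Fst lower in addition), deep cells gave 2965 genes and 0 members, thinning 3718 genes, and leaving out both SI8 hCD2 libraries 1618 genes and 0 members. Deep cells, those of at least 10000 UMIs, leave out SI8 of the hCD2 line at day 3, which had 11, and keep 31 of that arm at day 9. Without that day 3 library and with all cells of the rest, 0 members were also called, here and for the change by day. Its change by line gave 0 genes and 0 members, with 213 and 2 by DESeq2, 74 and 2 without the filter and 45 and 2 after thinning. Its change by day gave 572 genes and 4 members, with 1473 genes by DESeq2, 1000 without the filter, 28 genes and 0 members in deep cells, and 72 genes and 1 member without the SI8 hCD2 libraries.

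Leaving out 1 library at a time gave 1 to 4 members and 264 to 3310 genes for day 9 against MEF, and 2 to 4 and 561 to 4451 for day 3 against MEF. It gave 0 to 2 members and 3 to 1272 genes for day 9 against day 3, 0 to 660 genes for PIP against PI4, 0 to 6 members and 0 to 7364 genes for PIB against PI8, and 0 to 1 gene for Irf4 against Irf8. It gave 0 to 4 members and 3575 to 5306 genes for SII against SI8, 2 to 25 genes for the lines, 0 to 3 members and 0 to 531 genes for the change by line, and 0 to 6 members and 0 to 1367 genes for the change by day.

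In cells not thinned, the arms with a larger share of cells with a UMI at day 9 went from 2 to 0 for Sfrp1 and from 6 to 3 for Sfrp2.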
